A study of Mus musculus with 8 samples.

Results

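Transcripts that mark astrocytes and oligodendrocytes were followed in RNA from purified microglia. The members are 32 genes, 16 of astrocytes and 16 of the oligodendrocyte lineage, taken by symbol through their Ensembl IDs from the 26062 genes of the deposited count table, and all 32 were found. Cells were microglia sorted by MACS with magnetic beads against CD11b, a surface integrin subunit of myeloid cells, taken from the LGN (lateral geniculate nucleus), where retinal axons end in the thalamus, of wild type C57BL/6J male mice aged 2 to 3 months. The groups were uninjured mice (2 libraries), mice 1 day after crush of both optic nerves (3 libraries) and mice 3 days after it (3 libraries). The sort, the genotype and the amplification of RNA before sequencing were common to the 3 groups, and the labels name no sham surgery. Whether a library holds 1 animal or a pool is not stated in the labels, so each p-value measures the spread between libraries, which may be technical.

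Astrocytes take up glutamate released at synapses, pass ions and small molecules to each other through connexin channels, and wrap vessels with endfeet rich in water channels. Oligodendrocytes lay down myelin, a stack of membrane held together by a small set of abundant proteins, and they arise from precursors that divide in the adult brain. In the LGN both cell types lie beside the microglia, around the terminals and the myelinated axons that come from the retina.

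Library totals were 12700098 to 17994861 counts. All 15 microglial marker genes had counts in every library, and their summed level was 11423 to 20186 CPM, the usual unit that divides each count by its library's total, here scaled with TMM factors. The 16 astrocyte transcripts summed to 82.5 to 178 CPM and the 16 oligodendrocyte-lineage transcripts to 83.5 to 168 CPM. Endothelial markers stood at 957 to 2214 CPM, neuron markers at 22.6 to 39.6 CPM, and choroid plexus and ependyma markers at 1.09 to 5486 CPM. Per kilobase of exon, microglial Cx3cr1 was at 306 CPM in the uninjured group, Mal, the most abundant glial member, at 22.1, Slc1a3 at 9.84 and neuronal Snap25 at 0.253. These are bulk libraries, in which fewer cells of a type and less RNA per cell cannot be told apart.

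**Figure D1:**
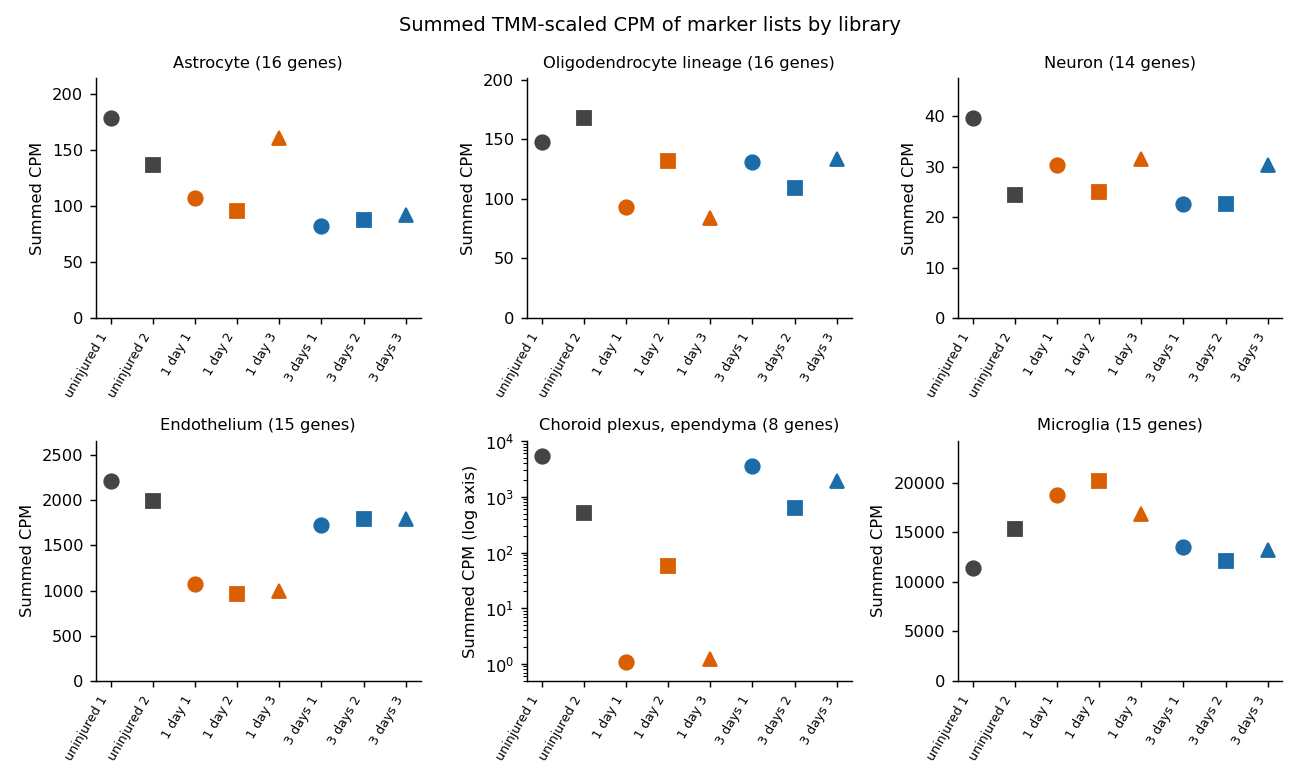
Summed TMM-scaled CPM of 6 marker lists in each library, with the 3 groups in different colours and a log axis for choroid plexus and ependyma alone. The astrocyte and oligodendrocyte sums lie between 82.5 and 178 CPM in all 8 libraries, against 11423 CPM or more for microglial markers.

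Of the 32 transcripts, 14 were well counted, with a mean of 50 or more counts over the 8 libraries. A library with 50 counts of a gene carries a counting error of 14.1%, and single libraries of these 14 genes held far fewer, such as 0, 1 and 2 counts of Gjb6 at 1 day and 3 counts of Aqp4 in 1 day replicate 1. Among astrocyte genes these were Gfap, Aqp4, Slc1a2, Slc1a3, Gja1, Gjb6, Aldoc, Slc4a4, Fgfr3 and Sox9, 10 of 16. Among oligodendrocyte genes they were Mbp, Mobp, Cnp and Mal, 4 of 16. A further 6 were thinly counted, at a mean of 10 to under 50 counts: S100b, Mag, Ermn, Ugt8a, Sox10 and Pdgfra. The other 12 had under 10 counts on average, too few for a comparison of single libraries: Mlc1, Aldh1l1, Acsbg1, Ntsr2, Agt, Mog, Cldn11, Opalin, Olig1, Olig2, Gpr17 and Cacng4. After the filter on low counts 24 entered the test, 12 of each glial type. A single count was worth 0.0515 to 0.0807 CPM.

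Few glial transcripts were called as different between groups. One that was not called may still have changed, since at 1 day the SE was 1.10 on the log2 scale for Gfap and 1.16 for Aqp4. Of the 12 astrocyte transcripts tested, edgeR's quasi-likelihood test called 1 at 1 day against uninjured mice (Gjb6, lower), 1 at 3 days (Slc1a3, lower) and 3 between 3 days and 1 day (Gjb6 and Sox9 higher, Slc1a3 lower). Of the 12 oligodendrocyte transcripts it called 1 at 1 day (Mal, lower), none at 3 days and none between the times. A gene was called when its p, adjusted by Benjamini and Hochberg across the 17390 genes tested, was under 0.05. Such calls fell on 1.77% of tested genes at 1 day, on 3.47% at 3 days and on 11.0% between the times. At 3 days 2 oligodendrocyte transcripts, Mal and Mobp, had an unadjusted p under 0.05 and both were lower. DESeq2 and limma-voom each called 1 of the 12 there, Mal. Between 3 days and 1 day 2 oligodendrocyte transcripts, Mbp and Mal, had an unadjusted p under 0.05 and both were higher at 3 days, and DESeq2 and limma-voom called 0.

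**Figure D2:**
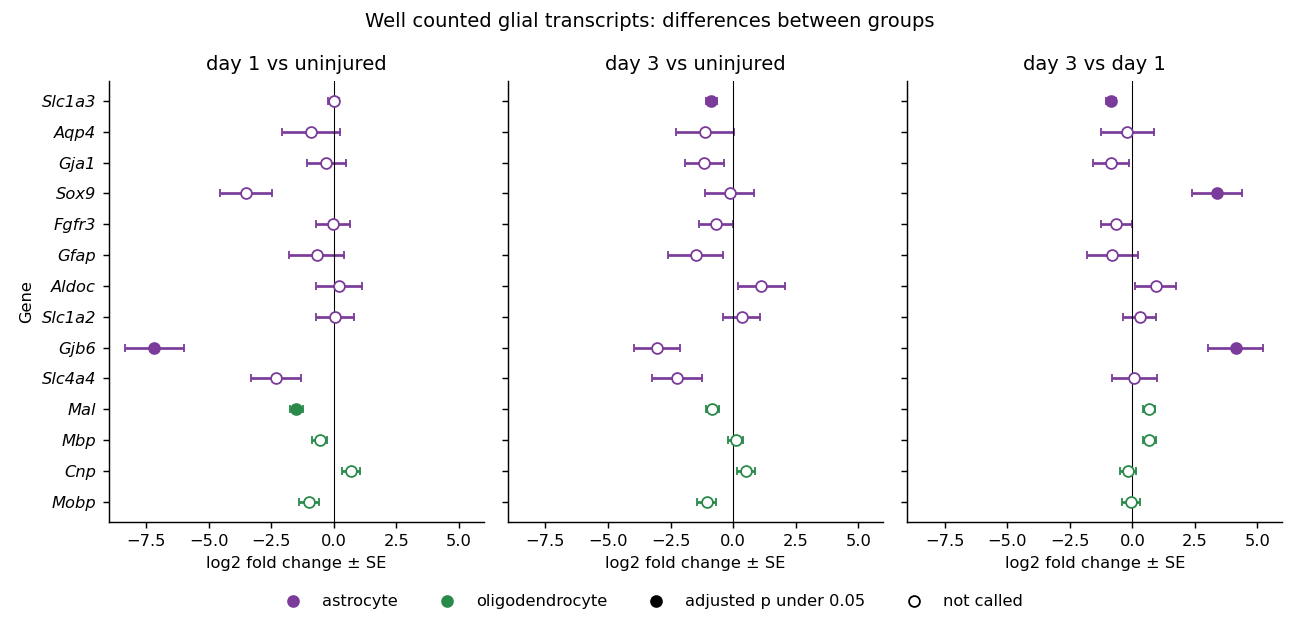
Log2 fold change with its standard error for the 14 well counted transcripts in the 3 comparisons, from edgeR; filled points have an adjusted p under 0.05. Gjb6 and Mal are filled at 1 day, Slc1a3 at 3 days, and Slc1a3, Gjb6 and Sox9 between the times.

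Slc1a3 encodes GLAST, the glutamate and aspartate transporter of astrocytes and radial glia. It was the most abundant astrocyte transcript here and held 45.2% to 77.4% of the astrocyte sum. Its level was 81.3 and 86.7 CPM in the uninjured libraries, 83.3, 72.5 and 95.4 CPM at 1 day, and 37.3, 55.5 and 45.4 CPM at 3 days. All 3 libraries of 3 days lay below the other 5, while those of 1 day spread around the uninjured pair. Group means were 84.0 ± 3.88 CPM (SD, n = 2), 83.7 ± 11.5 CPM (n = 3) and 46.1 ± 9.09 CPM (n = 3). The log2 fold change at 3 days equalled -0.87 (SE 0.22, adjusted p = 0.0429) against uninjured and -0.86 (SE 0.20, adjusted p = 0.0128) against 1 day, and both use the same 3 libraries of 3 days. At 1 day it was -0.00 (SE 0.22, adjusted p = 0.997). The call against uninjured mice was lost without uninjured replicate 1 (adjusted p = 0.216), uninjured replicate 2 (0.241), 3 days replicate 1 (0.169) or 3 days replicate 3 (0.146), with fold changes of -0.92, -0.82, -0.73 and -0.91. It was also lost with the replicate number as a block (adjusted p = 0.0664, log2 fold change -0.92), although the numbers do not pair the libraries. The call between 3 days and 1 day was lost without 3 days replicate 1 (adjusted p = 0.0684) or replicate 3 (0.0636). P2ry12, the purinergic receptor that marks resting microglia, was at 1211 and 1249 CPM without injury, 1185, 1228 and 1151 CPM at 1 day and 670.2, 619 and 692 CPM at 3 days. Like Slc1a3 it was lower in the 3 libraries of 3 days than in the other 5, and it fell there by 0.90 on the log2 scale against uninjured (SE 0.13, adjusted p = 0.00139). Of the 15 microglial markers 4 were called lower and 0 higher at 3 days against uninjured, and 6 lower and 0 higher between 1 day and 3 days. Over all tested genes 3.47% and 11.0% were called in these comparisons. The rest of the markers were mixed: against uninjured 9 of the 15 had a log2 difference of group means above 0 and 6 below, with a median of 0.16. Cx3cr1 was not called there (log2 0.30, SE 0.19, adjusted p = 0.515 by edgeR). From 1 day to 3 days 2 were above 0 and 13 below. The markers summed to 11423 to 15363 CPM without injury, 16905 to 20186 CPM at 1 day and 12126 to 13510 CPM at 3 days, with none of the 15 at 0 in any library. The part of microglial RNA in the Slc1a3 result was not tested.

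The other glutamate transporter, Slc1a2 (GLT-1), is the main one of mature astrocytes in the forebrain. Its level was 6.89 and 1.60 CPM without injury, 2.88, 2.41 and 7.82 CPM at 1 day and 3.92, 5.06 and 7.18 CPM at 3 days. The groups overlapped, and its log2 fold change was 0.05 (SE 0.75) at 1 day and 0.34 (SE 0.75) at 3 days. Per kilobase of exon Slc1a2 was at 0.323 CPM in uninjured mice against 9.84 for Slc1a3.

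Gjb6 encodes connexin 30, a gap junction protein of astrocytes that is also made in the meninges. Its level was 6.46 and 16.5 CPM without injury, 0, 0.0802 and 0.123 CPM after 1 day, and 2.09, 1.86 and 0.161 CPM after 3 days. No library of 1 day had more than 2 counts, and the third library of 3 days lay near them. The 3 libraries of 1 day held 3 counts in all against 442 in the uninjured pair, a ratio of 160 after scaling, with a 95% interval from counting error alone of 54.6 to 781. The fitted log2 fold change, whose size depends on the prior count at such low values, was -7.19 (SE 1.17, adjusted p = 0.00669). At 3 days it was -3.05 (SE 0.92, adjusted p = 0.0926), not called, and DESeq2 (adjusted p = 0.0165) and limma-voom (0.0443) did call it. From 1 day to 3 days the counts were 3 and 59, a ratio of 19.9 (interval 6.47 to 99.1), and the rise was called (log2 4.13, SE 1.09, adjusted p = 0.0258). The fall at 1 day was lost without uninjured replicate 2 (adjusted p = 0.0624). The rise was lost without uninjured replicate 2 (0.0752), 1 day replicate 1 (0.0627), 3 days replicate 1 (0.0848) or 3 days replicate 2 (0.0687), with limma-voom (0.257) and with the replicate block (0.0599).

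Gja1 encodes connexin 43, the more widespread astrocyte connexin, found also in meninges and vessels. Its level was 10.2 and 7.88 CPM without injury, 17.4, 2.89 and 1.85 CPM at 1 day and 3.60, 2.83 and 5.73 CPM at 3 days. The library with the most was replicate 1 of 1 day, in which Gjb6 had no count. All 3 libraries of 3 days lay below the uninjured pair, but the difference was not called (log2 fold change -1.16, SE 0.78, adjusted p = 0.538).

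Gfap, the intermediate filament protein that marks many reactive astrocytes, was at 13.6 and 1.96 CPM without injury, 0.467, 0.722 and 13.1 CPM at 1 day and 3.86, 1.71 and 2.66 CPM at 3 days. Aqp4, the water channel of the endfeet, was at 17.8 and 2.01 CPM, then 0.234, 1.28 and 13.98 CPM, then 3.47, 4.77 and 5.41 CPM. For both, uninjured replicate 1 and 1 day replicate 3 were far above the other 6 libraries, so each group but that of 3 days held 1 high library. The log2 fold changes of Gfap were -0.69 (SE 1.10) at 1 day and -1.495 (SE 1.11) at 3 days, with adjusted p of 0.856 and 0.593. Those of Aqp4 were -0.93 (SE 1.16) and -1.13 (SE 1.16), with adjusted p of 0.803 and 0.737. Without uninjured replicate 1 all 4 turned positive, to 1.28 and 0.48 for Gfap and 1.36 and 1.17 for Aqp4, none of them called. Mlc1, a membrane protein of the same endfeet, had 1.39 and 0 CPM, then 0, 0 and 0.0616, then 0.392, 0.521 and 0.726, too few counts to compare.

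Sox9, the transcription factor that specifies astrocytes and is also expressed by choroid plexus epithelium, was at 15.1 and 2.16 CPM without injury, 0, 1.04 and 1.17 CPM at 1 day, and 10.9, 2.46 and 10.1 CPM at 3 days. Every library of 1 day was below every other library. Its rise from 1 day to 3 days was called (log2 3.38, SE 0.996, adjusted p = 0.0432), and its difference from uninjured at 1 day was not (-3.52, SE 1.05, adjusted p = 0.109), though DESeq2 called the latter (0.00989). The rise was lost without any one of 5 libraries, 1 day replicates 1, 2 or 3 and 3 days replicates 1 or 3, with adjusted p up to 0.142, and with limma-voom (0.116), no filter on low counts (0.0556), the replicate block (0.0737) and a fit to those 2 groups alone (0.0507). Ttr, the transthyretin gene that defines choroid plexus, was at 5157 and 484 CPM without injury, 0.467, 54.2 and 0.986 CPM at 1 day and 3309, 591 and 1815 CPM at 3 days. The list of choroid plexus and ependyma markers, 8 of 8 tested, summed to 521 to 5486 CPM without injury, 1.09 to 56.6 CPM at 1 day and 620 to 3563 CPM at 3 days; at 1 day Folr1 and Otx2 were at 0 in all 3 libraries. In uninjured mice and at 3 days the libraries with the most Ttr also had the most Sox9, and the part of choroid plexus RNA in the Sox9 result was not tested.

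Slc4a4, a sodium bicarbonate cotransporter of astrocytes, was at 9.40 and 7.47 CPM without injury, 0.779, 0.0802 and 4.13 CPM at 1 day and 1.504, 2.46 and 1.37 CPM at 3 days. All 6 libraries after crush were below the uninjured pair. The differences were not called, at log2 -2.32 (SE 0.99, adjusted p = 0.284) and -2.24 (SE 0.99, adjusted p = 0.277); the first was called without 1 day replicate 3 (-4.26, adjusted p = 0.0486) and the second in a fit to those 2 groups alone (adjusted p = 0.0192). Aldoc, the brain form of the glycolytic enzyme aldolase, was at 4.97 and 1.80 CPM, then 0.234, 6.74 and 4.68 CPM, then 8.63, 4.47 and 9.20 CPM. Fgfr3, a fibroblast growth factor receptor of astrocytes, was at 7.80 and 4.17 CPM, then 1.87, 6.02 and 9.61 CPM, then 3.79, 4.09 and 3.31 CPM. Aldoc overlapped between groups, Fgfr3 was lower in all 3 libraries of 3 days than in the uninjured pair, and neither was called in any comparison. Fgfr3 shares 998 of its 7158 exonic bases with a gene on the opposite strand, and the strand setting of the counting is not given in the sources used here.

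The remaining astrocyte members were scarce. S100b, a calcium-binding protein also found in oligodendrocytes, ranged from 0.160 to 4.68 CPM with overlapping groups. Aldh1l1, a folate enzyme often used to label all astrocytes, ranged from 0 to 1.93 CPM, and Acsbg1, an acyl-CoA synthetase, from 0 to 0.616 CPM. Agt, the angiotensin precursor, reached 0.481 CPM at most. Ntsr2, a neurotensin receptor, had 43 counts in 1 day replicate 3 (2.65 CPM), 1 count in uninjured replicate 1 and none in the other 6 libraries.

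**Figure D3:**
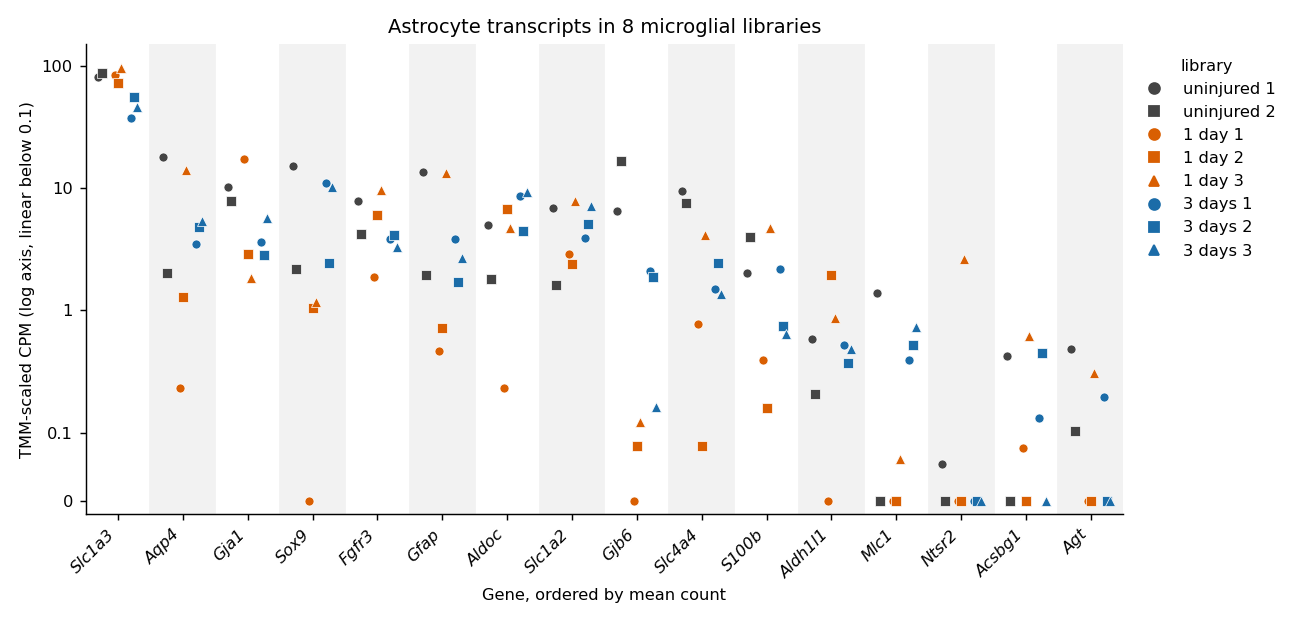
TMM-scaled CPM of the 16 astrocyte transcripts in each of the 8 libraries, ordered by mean count, on a log axis that is linear below 0.1. Slc1a3 stays between 37.3 and 95.4 CPM, while Gfap and Aqp4 are high in uninjured replicate 1 and 1 day replicate 3 alone.

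Mal encodes a proteolipid of compact myelin that also sorts membrane in epithelia. Its level was 64.2 and 58.4 CPM without injury, 27.1, 19.1 and 18.9 CPM at 1 day, and 31.6, 38.0 and 33.1 CPM at 3 days. The 3 groups did not overlap: every uninjured library was above every library of 3 days, and each of those was above every library of 1 day. Means were 61.3 ± 4.10 CPM (SD, n = 2), 21.7 ± 4.68 CPM (n = 3) and 34.2 ± 3.32 CPM (n = 3). Mal fell at 1 day, the log2 fold change being -1.497 (SE 0.26, adjusted p = 0.00912). At 3 days the difference of -0.84 (SE 0.26, adjusted p = 0.0976) was not called by edgeR and was by DESeq2 (0.0199) and limma-voom (0.0481). Between 3 days and 1 day it was 0.66 (SE 0.24, adjusted p = 0.0919). The call at 1 day was lost without uninjured replicate 1 (-1.43, adjusted p = 0.155) and kept without each of the other 7 libraries.

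Mobp, a myelin protein that binds the cytoplasmic faces of the sheath, was at 16.9 and 24.7 CPM without injury, 12.8, 10.9 and 7.64 CPM at 1 day and 9.09, 9.98 and 10.9 CPM at 3 days. All 6 libraries after crush were below the uninjured pair, but neither difference was called (log2 -0.99, SE 0.39, adjusted p = 0.238, and -1.06, SE 0.39, adjusted p = 0.181). Mbp, the major protein that compacts myelin, was at 37.4 and 45.5 CPM, then 22.1, 34.7 and 26.7 CPM, then 52.3, 31.6 and 50.2 CPM. The 3 libraries of 1 day lay below the uninjured pair and those of 3 days on both sides of it, with log2 fold changes of -0.58 (SE 0.29, adjusted p = 0.384) and 0.11 (SE 0.29, adjusted p = 0.923). Cnp, an enzyme of the noncompact myelin and the oligodendrocyte cytoplasm, went the other way in its means, at 14.2 and 23.0 CPM, then 26.8, 40.4 and 22.1 CPM, then 28.4, 19.4 and 32.4 CPM. Its groups overlapped, and the log2 fold changes of 0.68 (SE 0.36, adjusted p = 0.419) and 0.52 (SE 0.36, adjusted p = 0.552) were not called. Cnp shares 154 of its 3639 exonic bases with Dnajc7 on the opposite strand.

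These 4 myelin transcripts had different orders of the groups in the same libraries. Mal and Mobp were lower in all 6 injured libraries than in the uninjured pair, Mbp was lower in the 3 libraries of 1 day, and Cnp overlapped in both comparisons. Per kilobase of exon the uninjured levels were 22.1 CPM for Mal, 5.10 for Cnp, 4.90 for Mbp and 3.03 for Mobp. At 1 day the order was Cnp (8.18), Mal (7.81), Mbp (3.28) and Mobp (1.52).

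The other myelin genes had few counts. Mag, an adhesion protein of the innermost myelin layer, was at 1.60 and 4.48 CPM without injury, 0.701, 6.42 and 2.77 CPM at 1 day and 3.86, 2.08 and 1.94 CPM at 3 days. Ermn, a cytoskeletal protein of late oligodendrocytes, ranged from 0.447 to 9.79 CPM, with the highest value in 1 day replicate 2. Ugt8a, the enzyme that makes myelin galactolipid, ranged from 0 to 2.41 CPM and was highest in the same library. Cldn11, the tight junction protein of myelin, was at 1.02 and 1.60 CPM in uninjured mice and at 0.0779 to 0.562 CPM in the 6 libraries after crush, which did not overlap; it averaged under 10 counts and was not called. Mog, the outer surface protein of myelin, was at or below 0.748 CPM and Opalin, a sialoglycoprotein of oligodendrocytes, at or below 0.464 CPM.

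Among the lineage factors, Olig2 was at 0.267 and 1.18 CPM in uninjured mice (5 and 23 counts) and had no count in any of the 6 libraries after crush. Taking 3 counts summed over a group as the floor, it was at least 10.2-fold lower at 1 day and at least 10.1-fold lower at 3 days. These bounds rest on uninjured replicate 2: without it they were 3.70-fold and 3.66-fold, an alternative added after seeing the data. The genes with any count numbered 22395 and 21663 in the uninjured libraries, 18035, 18651 and 20220 at 1 day and 20632 to 21044 at 3 days. Counts were too few for the test, and no p is given. Olig1, its neighbour in the family, was at 0.267 and 0.824 CPM without injury, 0, 0.802 and 0.0616 CPM at 1 day, and 0.0654, 0 and 0 CPM at 3 days. The highest library of 1 day reached the uninjured level, and the 3 days libraries held 1 count in all against 21, a ratio of 22.6 with a counting interval of 3.64 to 937. Without uninjured replicate 2 that ratio was 11.0, with an interval of 1.23 to 519.5. Sox10, which drives myelin genes, was at 0.855 and 1.34 CPM, then 0.0779, 3.69 and 0.801 CPM, then 0.392, 1.19 and 0.242 CPM, with overlapping groups. In replicate 2 of 1 day, 46 counts of Sox10 and 10 of Olig1 stood beside no count of Olig2.

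Precursor genes were no better covered. Pdgfra, the growth factor receptor that marks precursors and also fibroblasts, was at 6.20 and 1.70 CPM without injury, 0.779, 2.01 and 0.739 CPM at 1 day and 1.24, 4.84 and 1.21 CPM at 3 days, and the groups overlapped. Cacng4, an auxiliary subunit of AMPA-type glutamate receptors, was at 0.481 and 0.876 CPM in uninjured mice, with no count at 1 day and 2 counts in all at 3 days. It was at least 9.44-fold lower at 1 day, and at 3 days the ratio was 14.02 with a counting interval of 3.51 to 122. Without uninjured replicate 2 the bound was 6.66-fold and the ratio 9.89, with an interval of 2.05 to 94.0. Gpr17, a receptor of differentiating precursors, ranged from 0.0802 to 1.03 CPM and overlapped between groups.

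**Figure D4:**
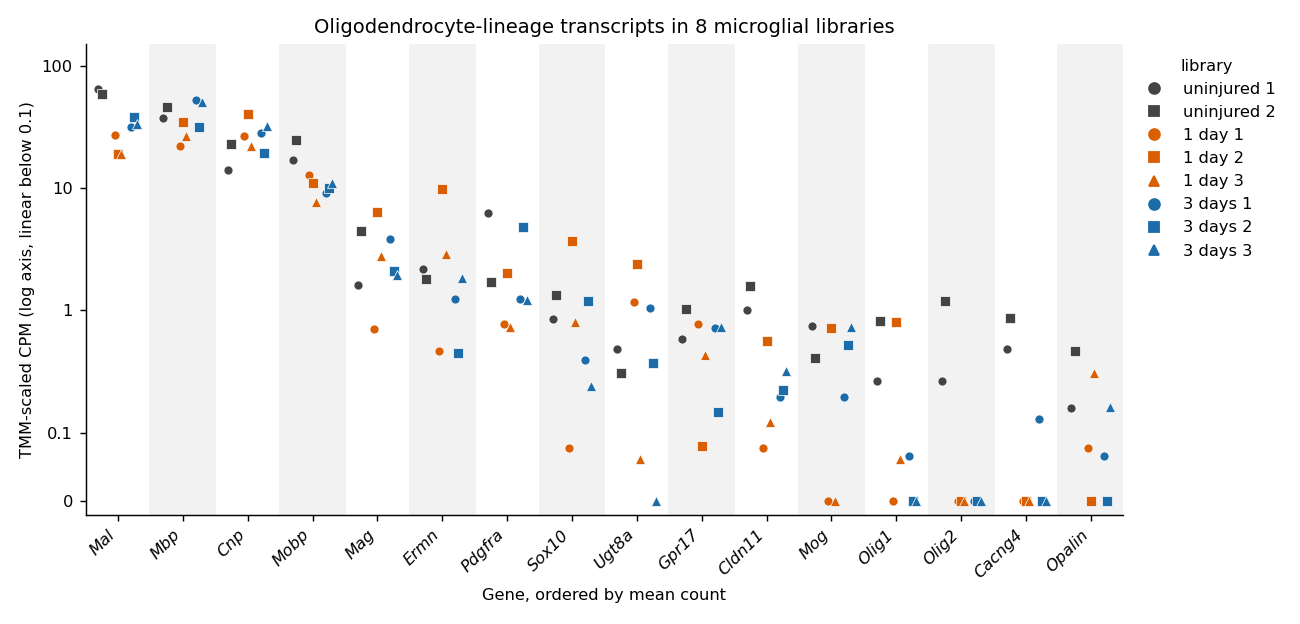
TMM-scaled CPM of the 16 oligodendrocyte-lineage transcripts in each of the 8 libraries, ordered by mean count, on a log axis that is linear below 0.1. Mal separates the 3 groups, and Olig2 has counts in the 2 uninjured libraries alone.

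Read as lists, the well counted astrocyte transcripts lower in every library of 1 day than in both uninjured libraries were 3 of 10 (Gjb6, Slc4a4 and Sox9), and the oligodendrocyte ones 3 of 4 (Mbp, Mobp and Mal), against 12.6% of the 11534 tested genes with a mean of 50 or more counts. At 3 days they were 5 of 10 (Slc1a3, Gja1, Gjb6, Slc4a4 and Fgfr3) and 2 of 4 (Mobp and Mal), against 21.1% of those genes. Members under 10 counts on average that were lower without overlap, such as Cldn11, Olig2 and Cacng4, are left out of these counts. The cut of 50 was on the mean of all 8 libraries, which Gjb6 and Slc4a4 reached through the uninjured pair. They held 442 and 321 counts there, 3 and 78 at 1 day and 59 and 73 at 3 days. Their place among the lower genes is thus in part set by the cut, which also applied to the 11534 genes. None of the 32 was higher in every injured library of either time than in both uninjured libraries. The median log2 difference over all 16 members, from group means of log2 CPM with a prior of 2 counts, was -0.80 at 1 day and -0.50 at 3 days for astrocyte genes and -0.89 and -0.83 for oligodendrocyte genes; over all tested genes it was -0.00194 and -0.0149. Without uninjured replicate 1 the astrocyte medians became 0.0161 and 0.457, so their sign rests on that library, while those of oligodendrocyte genes stayed between -1.23 and -0.462 at 1 day and between -0.883 and -0.657 at 3 days with each library left out. Both comparisons share the uninjured pair. For Gfap between 3 days and 1 day the log2 difference of means was 0.51 and the fitted log2 fold change -0.80; its counts at 1 day were 6, 9 and 213.

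Within the uninjured group and at 1 day, most of the 16 members of a glial type were highest in the same library, which was not the same for the 2 types. Of 16 astrocyte transcripts 13 were higher in uninjured replicate 1 than in replicate 2, and 13 were highest in replicate 3 among the libraries of 1 day. Of the oligodendrocyte transcripts 11 of 16 were higher in uninjured replicate 2, and 10 of the 14 with a count at 1 day were highest in replicate 2. Over all tested genes the uninjured libraries took 49.7% and 50.3%, and replicates 1, 2 and 3 of 1 day took 31.8%, 35.5% and 32.7%. Further oligodendrocyte genes, given below, differed: 26 of 42 were higher in uninjured replicate 1, and at 1 day replicates 2 and 3 took 18 and 16 of 42. Further astrocyte genes were higher in uninjured replicate 1 for 24 of 38 and highest in 1 day replicate 3 for 18 of 37. Other cell types also leaned to 1 uninjured library, microglial markers to replicate 2 (13 of 15) and choroid plexus and ependyma markers to replicate 1 (8 of 8). At 3 days the highest astrocyte values fell on replicates 1, 2 and 3 for 6, 4 and 5 of 15 genes and the highest oligodendrocyte values for 5, 3 and 7 of 15. Astrocyte genes at 0 numbered 6, 4 and 0 in the 3 libraries of 1 day, and Ntsr2, Agt and Mlc1 had their only counts of that time in replicate 3. In the same libraries 1289, 1003 and 401 of all tested genes were at 0, and the part of this in the astrocyte zeros was not tested. Leaving Slc1a3 out, the astrocyte sum was 97.2 and 49.9 CPM without injury, 24.3, 23.3 and 65.7 CPM at 1 day and 45.2, 31.8 and 47.0 CPM at 3 days. The oligodendrocyte sum was 147 and 168 CPM, then 92.9, 132 and 83.5 CPM, then 131, 109 and 134 CPM.

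This spread was large for some astrocyte genes and below the median of like genes for Slc1a3, Mal and Mobp. It is given as a coefficient of variation from edgeR's dispersion of each gene. That is a single value for all groups together, with counting error taken out, and can differ from the spread within a group. The coefficient of variation between replicates was 117% for Aqp4, 113% for Gfap and 110% for Sox9, where tested genes of like level had medians of 43.6%, 47.5% and 45.8%; they lay at the 98.5, 97.1 and 97.1 percentiles of those genes. For Slc1a3 it was 14.8% against a median of 17.0%, and for Mal 13.5% against 21.4%. Mobp, at 19.9% against 31.6%, was also below the median of its like, and Mbp (22.6% against 21.2%) and Cnp (29.1% against 24.2%) were just above it.

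**Figure D5:**
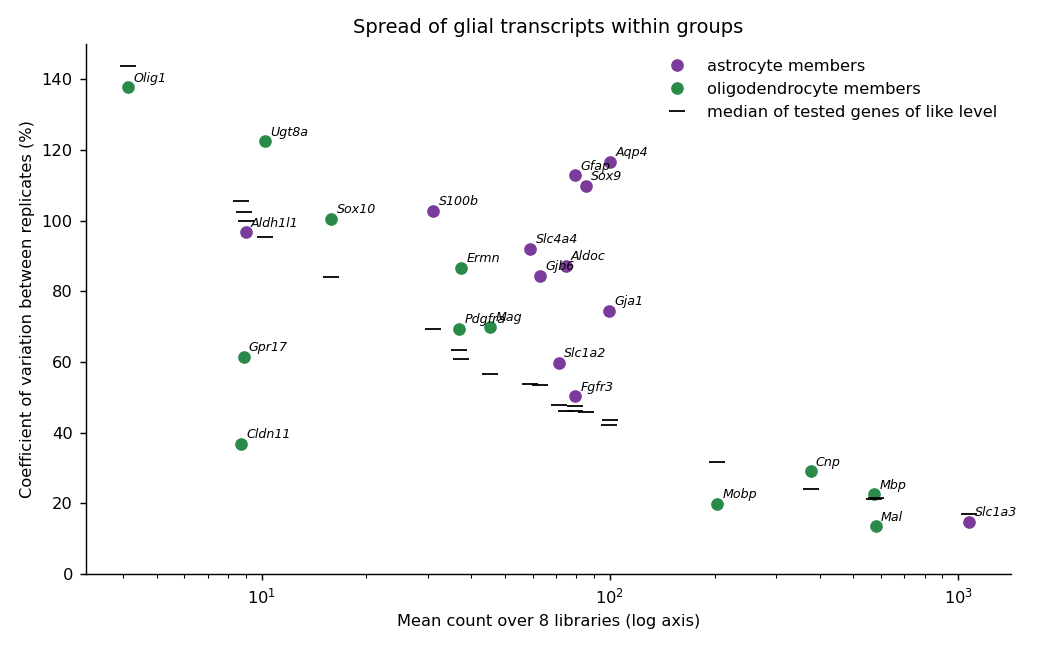
Coefficient of variation between replicates from edgeR's dispersion, in percent, against the mean count on a log axis for the 24 tested glial transcripts. A dash gives the median of all tested genes of like level. Aqp4 (117%), Gfap (113%) and Sox9 (110%) lie far above their dashes, and Mal (13.5%) and Slc1a3 (14.8%) below theirs.

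The promoters of the 3 members called against uninjured mice are shown because the results turn on them. Each is the 250 bases before the RefSeq transcription start on the minus strand of GRCm38.p6, a build other than the mm9 of the counts, and runs from 5′ to 3′. Capitals mark the core bound by SOX factors such as Sox9 and Sox10 (ACAAT, or ATTGT on the other strand) and the E-box bound by factors such as Olig2 (CANNTG, the same on both strands).
Slc1a3, chr15:8710808-8711057: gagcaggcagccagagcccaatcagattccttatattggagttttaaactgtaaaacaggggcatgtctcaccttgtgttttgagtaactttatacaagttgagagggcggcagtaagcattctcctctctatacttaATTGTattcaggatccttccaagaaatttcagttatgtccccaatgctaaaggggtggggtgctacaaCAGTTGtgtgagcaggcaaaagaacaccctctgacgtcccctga
Gjb6, chr14:57133612-57133861: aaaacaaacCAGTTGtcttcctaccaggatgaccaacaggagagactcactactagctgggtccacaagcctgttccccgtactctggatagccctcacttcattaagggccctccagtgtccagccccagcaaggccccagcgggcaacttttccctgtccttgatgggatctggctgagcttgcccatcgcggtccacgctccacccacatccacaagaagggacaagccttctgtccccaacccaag
Mal, chr2:127656696-127656945: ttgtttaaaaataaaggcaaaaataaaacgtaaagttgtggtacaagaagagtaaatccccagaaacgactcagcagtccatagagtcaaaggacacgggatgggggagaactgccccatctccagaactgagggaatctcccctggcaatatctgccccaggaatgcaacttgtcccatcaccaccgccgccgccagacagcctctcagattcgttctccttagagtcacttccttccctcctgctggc
The SOX core was found once in the Slc1a3 window and not in the other 2, and an E-box once in those of Slc1a3 and Gjb6 and not in that of Mal. Among 32851 such windows of 250 bases, 27.7% held the SOX core and 66.2% an E-box. Of the 32 members 25 had an entry, of which 4 held the SOX core and 17 an E-box. A match describes letters in this window and is no evidence of binding.

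Other genes of the 2 lineages were followed through lists of 42 astrocyte, 46 oligodendrocyte and 24 precursor genes. Of 32 further astrocyte genes tested, 2 fell at 1 day, 1 fell at 3 days, and 5 rose (Clu, Sparcl1, Cxcl14 and Tril among them) and 1 fell (Glul) between 1 day and 3 days. Over all tested genes 1.77%, 3.47% and 11.0% were called in these comparisons. Glul, glutamine synthetase, which turns the glutamate that astrocytes take up into glutamine, was at 1651 and 1824 CPM without injury, 1625, 1644 and 1611 CPM at 1 day and 1274, 971 and 1137 CPM at 3 days. Like Slc1a3, it was lower in all 3 libraries of 3 days than in the other 5, and its log2 fold change was -0.62 against uninjured (SE 0.14, adjusted p = 0.0258) and -0.53 against 1 day (SE 0.13, adjusted p = 0.0167). The first call was lost without either uninjured library or 3 days replicate 2 or 3, with adjusted p up to 0.167, and the second without 3 days replicate 2 or 3. The first was also lost with the replicate block (log2 -0.63, adjusted p = 0.0599). The microglial markers P2ry12 and 3 others of the list were called lower in the same comparison, while 9 of the 15 had a log2 difference above 0. The part of microglial RNA in the Glul result was not tested. Clu, the chaperone clusterin, was at 106 and 40.3 CPM, then 21.0, 20.4 and 25.6 CPM, then 85.2, 37.5 and 53.2 CPM. It was lower in every library of 1 day than in the other 5. At 1 day Clu had log2 -1.71 (SE 0.38, adjusted p = 0.0341). The fall of Clu was lost without uninjured replicate 1 (log2 -0.86, adjusted p = 0.761), any library of 1 day or 3 days replicate 3, with limma-voom (0.0762) and in a fit to those 2 groups alone (0.0682). The rise of Clu from 1 day to 3 days was lost without 1 day replicate 1 or 3 days replicate 1 or 3, with adjusted p up to 0.112, and with limma-voom (0.0554). Sparcl1, a secreted synapse-associated protein of astrocytes and vessels, rose between 1 day and 3 days by 0.72 on the log2 scale (SE 0.17, adjusted p = 0.0154), a call lost without 3 days replicate 3 (0.104).

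Clu and Sparcl1 are also expressed in vessels or choroid plexus. Endothelial markers were at 1992 to 2214 CPM without injury, 957 to 1069 CPM at 1 day and 1731 to 1798 CPM at 3 days, with 10 of 15 lower at 1 day and 10 of 15 higher from 1 day to 3 days, and none of the 15 was at 0 in any library. Mural markers were at 1436 to 1669, 796 to 996 and 1145 to 1305 CPM, with 1 of 12 lower at 1 day and 4 of 12 higher between the times. Of all tested genes 1.77% were called at 1 day and 11.0% between the times. Like these sums, Gjb6, Sox9 and Mal were lowest at 1 day. The part of vessel RNA in these results was not tested. Neuron markers did not follow, at 24.3 to 39.6, 25.03 to 31.5 and 22.6 to 30.4 CPM in the 3 groups.

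Of 34 further oligodendrocyte genes tested, 1 fell at 1 day (Elovl7), 1 rose at 3 days (Anln), and 2 rose (Anln and Elovl7) and 1 fell (Evi2a) between the times. The shares called over all tested genes were 1.77%, 3.47% and 11.0%. Elovl7, a fatty acid elongase, was at 85.4 and 19.2 CPM without injury, 2.49, 2.41 and 3.39 CPM at 1 day and 28.5, 18.8 and 31.2 CPM at 3 days. Every library of 1 day was below the other 5, with log2 -4.23 (SE 0.51, adjusted p = 0.00132) that was called without each library in turn. The choroid plexus marker Ttr was likewise lowest in the libraries of 1 day (0.467, 54.2 and 0.986 CPM) and higher in uninjured replicate 1 (5157 CPM) than in replicate 2 (484 CPM), and endothelial markers were lowest at 1 day too; their part in the Elovl7 result was not tested. Anln, which encodes anillin, a protein of myelin septin assembly and of dividing cells, was at 5.56 and 4.28 CPM, then 4.28, 4.41 and 2.16 CPM, then 35.2, 56.1 and 42.4 CPM. It rose at 3 days by 3.18 (SE 0.43, adjusted p = 0.00084), in all 3 libraries and without each library in turn, while no myelin member rose. Evi2a fell between 1 day and 3 days (-1.01, SE 0.25, adjusted p = 0.0198), a call lost without 1 day replicate 3 or 3 days replicate 1 or 3.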

How the data were processed

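Bulk RNA was sequenced in 8 libraries, and the authors deposited raw read counts per Ensembl gene. The submitters' processing notes name FastQC, STAR, HTSeq and the mouse build mm9. Not given in the sources used here were versions, gene annotation and strand setting. Columns were matched to samples by title. Of 26062 IDs 25925 matched a symbol in GENCODE M21, which also gave exon lengths and overlaps: exons of 9 members overlap another gene, which for 5 is in the count table. IDs without a symbol held 0.127% of the counts.

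Counts were tested with edgeR 4.0.16 (R 4.3.3): filterByExpr, which left 17390 genes, TMM scaling, and a quasi-likelihood fit (robust) to the 8 libraries together with 3 group means, since the uninjured group has 2. P-values were adjusted by Benjamini-Hochberg across all tested genes, with a threshold of 0.05. Standard errors (SE) were obtained from the fold change and its F statistic. Levels are CPM, and totals of 12700098 to 17994861 counts make 1 count worth 0.0515 to 0.0807 CPM. Intervals and floors cover counting error only. The procedure was tested on simulated data.

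No library repeated another (chi-square per degree of freedom 30.4 to 61.4 within groups). Replicate numbers did not pair libraries (correlations of deviations between libraries with the same number -0.0638 to 0.0906). The members, lists and tests were chosen with earlier results of these data known. Named genes are all 32 members, up to 4 genes with the smallest p from each further list, and defining markers; Folr1, Otx2, Dnajc7, Cxcl14, Tril, Synm, Vim and Sphk1 were named after their values were seen, and 1 gene that the rule names is not reported here. Alternatives were DESeq2 1.42.0, limma-voom (limma 3.58.1), other scaling, no filter, a fit to 2 groups, the replicate block, leaving out mitochondrially encoded genes and each library left out in turn; bounds with each uninjured library left out were added after seeing the data.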

Additional observations from a re-analysis of the deposited data

Results flagged for a closer look

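For 3 astrocyte transcripts the difference from uninjured mice at 3 days was unlike that at 1 day by a test of the difference itself, which is the comparison of 3 days with 1 day, since both share the uninjured pair. The log2 difference was -0.86 for Slc1a3, 4.13 for Gjb6 and 3.38 for Sox9, by edgeR with adjusted p of 0.0128, 0.0258 and 0.0432. The direction held in all pairs of libraries of the 2 times for each of the 3 genes. They were chosen by a test on the same libraries, so this is no separate support, and the share of all genes that do so was not counted. The calls of Gjb6 and Sox9 were lost with limma-voom (adjusted p = 0.257 and 0.116) and with the replicate block in edgeR (0.0599 and 0.0737). No oligodendrocyte transcript met this test. With groups of 2 or 3 libraries no single library was tested as an outlier.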

How the results depend on the processing

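The number of astrocyte transcripts called at 1 day was 2 with DESeq2 (Gjb6 and Sox9). At 3 days it was 2 with DESeq2, with limma-voom and without the filter (Slc1a3 and Gjb6), 3 in a fit to those 2 groups (Slc1a3, Gjb6 and Slc4a4) and 0 with the replicate block. Between 3 days and 1 day it was 1 (Slc1a3) with limma-voom, the replicate block or a fit to 2 groups. For oligodendrocyte transcripts at 3 days it was 1 (Mal) with DESeq2, limma-voom or a fit to 2 groups. With each library left out in turn, astrocyte calls ranged from 0 to 2 against uninjured mice at either time and 0 to 3 between the times, and oligodendrocyte calls from 0 to 1 in each comparison. A lone uninjured library is then assumed to vary like the other groups. The cause of these changes was not tested.

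Changes of sign touched only differences that were not called. With limma-voom they were Aldoc at 1 day (-0.48), Sox9 at 3 days (0.21), and Gfap (0.45) and Aqp4 (1.19) between the times. With the replicate block they were Slc1a2 (-0.34) and Aldoc (-0.0654) at 1 day, and Gfap (0.51) and Aqp4 (1.12) between the times; the block lost the calls of Slc1a3 at 3 days and of Gjb6 and Sox9 between the times and no other member's; among the further genes it lost that of Glul at 3 days (-0.63, adjusted p = 0.0599). With library size alone they were Slc1a2 at 1 day (-0.0324), Mbp at 3 days (-0.0472) and Slc4a4 between the times (-0.0153). Slc1a2 at 1 day also turned without the filter (-0.00499), without mitochondrially encoded genes (-0.00597) and in a fit to 2 groups (-0.0144). With each library left out in turn, log2 fold changes at 1 day ranged from -3.69 to 1.28 for Gfap, -3.70 to 1.36 for Aqp4, -0.60 to 0.48 for Fgfr3, -0.68 to 1.45 for Slc1a2, -0.109 to 0.0440 for Slc1a3, -0.50 to 1.10 for Aldoc and -1.93 to 0.16 for Gja1. At 3 days they ranged from -2.30 to 0.48 for Gfap, -1.97 to 1.17 for Aqp4, -0.95 to 1.84 for Sox9, -0.0344 to 0.26 for Mbp and -0.36 to 1.74 for Slc1a2. Between the times they ranged from -1.33 to 0.77 for Gja1, -0.47 to 2.02 for Slc4a4, -0.25 to 0.11 for Mobp, -0.34 to 0.12 for Cnp, -1.34 to 2.19 for Gfap and -0.76 to 2.57 for Aqp4.

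Over all genes 308 were called at 1 day, 604 were at 3 days and 1912 between the times. They were 824, 1295 and 2872 with DESeq2, and a fit to 2 groups gave 110 and 1345 in the first 2. With each library left out they ranged from 39 to 368, 108 to 982 and 747 to 2362, lowest without uninjured replicate 1 in the first 2 and without 3 days replicate 3 in the last. The medians over members do not use the test or the filter and were not run with limma-voom, without the filter or in a fit to 2 groups. At 1 day 34.4% of calls were higher, against 53.3% with limma-voom and 16.5% with library size alone, which moved the median of all tested genes by -0.12 and at 3 days by -0.15. At 3 days 71.7% were higher, against 56.5% with library size alone and 59.5% without the filter. Depth limits 18 of the 32 members, those under 50 counts on average; thinned to the smallest library, 12 members in place of 14 reached 50.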

Other observations

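A list of 20 genes linked to reactive astrocytes, 17 of them tested, had 1 higher (Clcf1) and 1 lower (Synm, log2 -1.88, adjusted p = 0.0341 by edgeR) at 1 day, 2 higher at 3 days (Nes and Cxcl10), and 3 higher (Nes, Cxcl10 and Vim) and 3 lower (Clcf1, Stat3 and Sphk1) between the times. Calls fell on 1.77%, 3.47% and 11.0% of all tested genes in these comparisons. Nes, the intermediate filament nestin of progenitors, reactive astrocytes and new vessels, was at 97.4 and 103 CPM without injury, 60.5, 65.9 and 89.5 CPM at 1 day and 357, 403 and 471 CPM at 3 days. It rose at 3 days by 2.04 on the log2 scale (SE 0.20, adjusted p = 8.83e-05). Cxcl10, a chemokine made by glia and by myeloid cells, was at 61.8 and 67.5 CPM, then 76.5, 96.9 and 83.1 CPM, then 205, 290 and 283 CPM, a rise of 2.00 (SE 0.21, adjusted p = 0.000101). Both rises were called with each library left out in turn, while Gfap had log2 -1.495 (adjusted p = 0.593) in the same comparison. Clcf1, a cytokine of the interleukin 6 family, was at 37.0 and 54.8 CPM, then 142, 89.0 and 97.9 CPM, then 47.2, 47.5 and 41.6 CPM. Its rise at 1 day (1.26, SE 0.26, adjusted p = 0.0229) was lost without uninjured replicate 1 (adjusted p = 0.419), 1 day replicate 1 (0.0655) or 3 days replicate 3 (0.0573), with library size alone (0.0526) and in a fit to those 2 groups (0.0996). Stat3, a transcription factor that acts downstream of such cytokines, was lower at 3 days than at 1 day (-0.69, SE 0.14, adjusted p = 0.00491).

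Of 13 tested genes on the further precursor list, 2 rose at 3 days by edgeR's test, where 3.47% of all tested genes were called in either direction. Xylt1, which starts the sugar chains of proteoglycans, was at 14.3 and 11.02 CPM without injury, 12.3, 15.97 and 15.1 CPM at 1 day and 58.0, 71.3 and 71.8 CPM at 3 days (log2 2.40, SE 0.29, adjusted p = 0.000406). Chst11, a chondroitin sulfotransferase, was at 53.7 and 31.8 CPM, then 30.1, 72.7 and 44.7 CPM, then 119, 115 and 169 CPM (log2 1.65, SE 0.34, adjusted p = 0.0153), a call lost without uninjured replicate 2 (0.167) or 3 days replicate 3 (0.114). Pdgfra, Gpr17 and Cacng4 were not called in the same comparison, and the last was too scarce for the test. Vcan was lower in every library of 3 days than in the uninjured pair (log2 -0.98, SE 0.57) and Cspg4 higher (0.93, SE 0.37), neither of them called. Over the 23 genes of the list in the count table, 13 had a log2 difference of group means below 0 at 3 days and 10 above. Their median was -0.19.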
